A study of Homo sapiens with 9 samples.

Results

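Open chromatin was described at 8 genes of the electrophile and oxidative stress response, HMOX1, NQO1, GCLM, GCLC, SRXN1, SLC7A11, TXNRD1 and OSGIN1. The cells were 22Rv1, a human prostate carcinoma line, edited so that the splicing factor SF3B1 is in its C1111S form, and every group carried that edit. The groups were DMSO (0.1%, the vehicle), WX-02-23 (20 µM) and WX-02-43 (20 µM), each given for 3 h with 3 libraries per group. Both compounds are named stereoprobes in the labels, and each was tested at one dose and one time. The labels do not say whether the edited cells are 1 clone, nor that replicates were separate cultures. The p-values therefore rest on the spread among libraries, and that spread may be technical. ATAC-seq maps open chromatin through transposase insertion, and peaks called on each library were read here.

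Peaks of the 9 libraries that shared at least 1 bp were merged into 128994 regions. A region was a member if it overlapped a window of 80 to 220 kb around one of the 8 genes, which gave 81 members. TXNRD1 held 22 of them, SRXN1 13, HMOX1 and GCLC 10 each, OSGIN1 9, NQO1 8, SLC7A11 5 and GCLM 4. Each region is named by its gene and its number in genome order within the window, so that TXNRD1-r12 is region 12 of the TXNRD1 window. Windows hold neighbouring genes too, and a region is not thereby assigned to the gene it is named for.

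In this response, electrophiles and oxidants modify cysteines of KEAP1, which then no longer drives the breakdown of the transcription factor NFE2L2 (NRF2). NFE2L2 pairs with small MAF proteins at antioxidant response elements and raises genes for glutathione supply, thioredoxin reduction and quinone reduction, while BACH1 represses some of the same sites, those of HMOX1 in particular. SLC7A11 imports cystine, and GCLC and GCLM are the catalytic and modifier subunits of the enzyme that commits cysteine to glutathione. TXNRD1 reduces thioredoxin, SRXN1 repairs overoxidised peroxiredoxins, NQO1 reduces quinones, HMOX1 breaks down haem, and OSGIN1 encodes an oxidative stress induced growth inhibitor.

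Of the 8 genes, 6 matched RefSeq promoters of GRCh38.p14 by symbol, with 7 promoters of 300 bases that run from 250 bases before the start to 50 after it. The antioxidant response element core TGACNNNGC and the AP-1 motif TGANTCA were searched on both strands, and these motifs can overlap. The core lay in the promoter of GCLM, 34 bases upstream of the start, and in both promoters of TXNRD1, and TGANTCA lay in that of OSGIN1, 97 bases upstream. The promoters of NQO1, GCLC and SRXN1 held neither motif, which says only that these letters are not in these windows. Among 35116 promoters of the same length, 13.3% held TGACNNNGC and 7.71% held TGANTCA. The 3 sequences below are those with a match whose gene start lay under a region held by every library, and capitals mark the match. They are GCLM at chr1:93909381-93909680 (minus strand), the downstream TXNRD1 promoter at chr12:104286782-104287081 (plus strand) and OSGIN1 at chr16:83952990-83953289 (plus strand), all in GRCh38.p14. Peak coordinates are in hg19 and were not placed on these sequences.
GCLM promoter: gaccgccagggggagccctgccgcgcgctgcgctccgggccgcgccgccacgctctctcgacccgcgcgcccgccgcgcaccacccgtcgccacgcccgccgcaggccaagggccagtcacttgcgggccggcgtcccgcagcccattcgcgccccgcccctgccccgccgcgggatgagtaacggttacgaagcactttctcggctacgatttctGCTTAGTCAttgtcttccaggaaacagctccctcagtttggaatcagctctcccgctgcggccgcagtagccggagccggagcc
TXNRD1 downstream promoter: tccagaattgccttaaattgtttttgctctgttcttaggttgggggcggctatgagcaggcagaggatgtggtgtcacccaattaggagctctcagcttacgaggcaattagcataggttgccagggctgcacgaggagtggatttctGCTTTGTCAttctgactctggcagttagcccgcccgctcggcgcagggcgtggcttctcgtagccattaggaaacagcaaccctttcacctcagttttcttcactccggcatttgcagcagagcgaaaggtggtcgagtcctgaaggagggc
OSGIN1 promoter: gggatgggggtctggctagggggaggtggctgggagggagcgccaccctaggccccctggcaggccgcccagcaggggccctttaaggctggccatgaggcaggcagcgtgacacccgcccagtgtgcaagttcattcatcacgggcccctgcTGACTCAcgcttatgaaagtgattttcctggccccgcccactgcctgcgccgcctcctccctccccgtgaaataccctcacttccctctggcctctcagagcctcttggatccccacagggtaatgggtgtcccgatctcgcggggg

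Of the 81 members, 41 were held by all 9 libraries, 28 by 2 to 8 and 12 by 1. All 9 libraries held 50.6% of the members and 46.2% of all merged regions. The shared members had a median width of 768 bp and the others 247 bp. Fold enrichment, the authors' ratio of summit signal to local background, had a median of 9.05 over the shared members and 8.82 over all shared regions. One shared region lay over the start of each gene, and at TXNRD1 it was the downstream start that was covered. The start regions averaged 13.49 ± 1.22 fold at SLC7A11, 11.83 ± 1.04 at NQO1, 11.54 ± 0.43 at GCLM, 10.52 ± 0.77 at SRXN1, 9.15 ± 0.43 at OSGIN1, 8.76 ± 1.02 at HMOX1, 7.33 ± 0.52 at TXNRD1 and 5.88 ± 0.32 at GCLC (SD over the 9 libraries). All 8 genes were thus open at a start with the vehicle alone. The most enriched shared region of the 8 windows was OSGIN1-r9, about 42.9 kb from the OSGIN1 start, at 16.38 ± 1.7 fold (SD, n = 9). The least enriched was SRXN1-r8 at 4.41 ± 0.39 fold (SD, n = 9). In the other windows the most enriched shared region was SRXN1-r1 (14.07 ± 0.51), SLC7A11-r4 over the start, NQO1-r7 (13.25 ± 0.91), HMOX1-r10 (13.16 ± 0.89), GCLM-r1 (13.13 ± 0.86), GCLC-r7 (11.93 ± 0.79) and TXNRD1-r6 (10.2 ± 1.52), each with SD and n = 9. At 7 of the 8 genes the most enriched region thus lay away from the start.

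Peak lists held 81962 to 105132 peaks, and the median shared region had 29 to 38 fragments at its summit. Fragments are the units stacked by the peak caller, solved from the deposited fold and p-value. Members held numbered 49, 52 and 62 in DMSO, 67, 57 and 57 with WX-02-23 and 51, 55 and 52 with WX-02-43. The DMSO counts overlapped with those of both stereoprobes. Each WX-02-23 library held more members than any WX-02-43 library, though by as little as 57 against 55. Over all merged regions these 2 groups overlapped. The WX-02-23 libraries held 77.7%, 66.7% and 65.7% of them, and the WX-02-43 libraries 59.2%, 68.8% and 71.3%. WX-02-23 replicate 1 had the longest list and held 5 of the 12 members found in 1 library. The prostate luminal loci FOXA1, HOXB13 and KLK3 each had a region held by all 9 libraries, and so did 3 of 4 loci of other lineages (GATA1, MYOD1 and CDX2, but not ALB), so open regions at these loci do not by themselves mark the cell type.

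**Figure D1:**
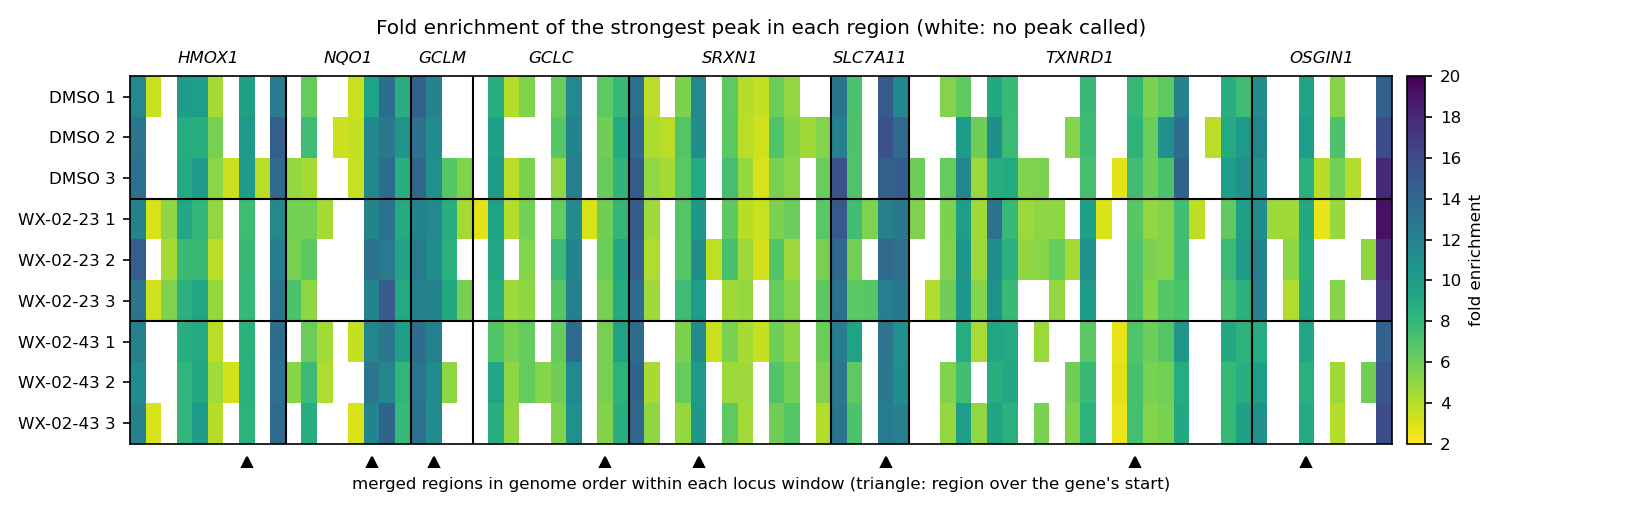
Fold enrichment of the strongest peak in each of the 81 member regions (columns, by gene and in genome order) in each of the 9 libraries (rows); white means that no peak was called, and triangles mark regions over a gene start. The 41 regions with colour in every row include 1 over a start of each gene, and regions with white rows had a median fold of 4.6 where called.

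The 3 pairs of groups were compared in one model, with p-values adjusted over all regions within each pair, and both contrasts with DMSO share its libraries. With WX-02-23, TXNRD1 was the locus with the largest differences in summit fragments and local background among the 8, against DMSO and against WX-02-43. Local background is the fragment level that the peak caller expected at the summit, from a stretch that may include the peak itself. Of the 10 shared TXNRD1 regions, 4 had more summit fragments with WX-02-23 than with DMSO and 8 a higher background (adjusted p under 0.05). Against WX-02-43 these counts were 2 and 8. WX-02-43 itself was above DMSO in background at 7 of the 10 at an unadjusted p under 0.05. Fold enrichment, which divides summit signal by background, showed little of the rise with WX-02-23 against DMSO and fell at 1 region. Both components were solved from the deposited fold and p-value, and their analysis was added after the data were seen. How wide a stretch the caller used for its background is not given in the sources used here. Neighbouring regions can share it, so regions of one locus are not independent. Whether a region's own fragments enter its background is not given either, so its summit and background may not be separate observations.

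TXNRD1-r12 (chr12:104669343-104670573, hg19) lay about 10.7 kb upstream of the downstream start and showed the largest rise at a summit. Its summit held 36, 38 and 42 fragments in DMSO replicates 1 to 3, 100, 81 and 83 with WX-02-23, and 34, 47 and 54 with WX-02-43. Every WX-02-23 library lay above every other library, while WX-02-43 and DMSO overlapped. After normalisation the log2 difference was 1.21 (SE 0.11) from DMSO and 0.98 (SE 0.11) from WX-02-43 (limma, Benjamini-Hochberg adjusted p = 0.000577 and 0.00159), and 0.187% of all shared regions rose as much against DMSO. Its fold was 7.84, 7.63 and 7.34 in DMSO, 9.78, 10.92 and 10.06 with WX-02-23 and 6.62, 7.81 and 8.38 with WX-02-43. By fold WX-02-23 was again the highest in each library, but the log2 difference from DMSO, 0.43, missed the threshold (limma adjusted p = 0.0845). Local background there was 3.72, 4.11 and 4.86 fragments in DMSO, 9.33, 6.51 and 7.35 with WX-02-23 and 4.29, 5.14 and 5.56 with WX-02-43, so it rose with the summit (log2 difference from DMSO 0.76, limma adjusted p = 0.000347).

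TXNRD1-r6 (chr12:104607511-104608176) and TXNRD1-r7 (chr12:104612973-104614475) lay about 1.8 kb before and 4.1 kb after the upstream TXNRD1 start, over which no region was called. The summit of r6 held 29, 32 and 29 fragments in DMSO, 73, 43 and 49 with WX-02-23 and 29, 34 and 36 with WX-02-43. The WX-02-23 libraries again lay above the other 6, with log2 differences of 0.87 (SE 0.14) from DMSO and 0.71 (SE 0.14) from WX-02-43 (limma adjusted p = 0.00549 and 0.0165). Without WX-02-43 replicate 1 or 2 the latter p for TXNRD1-r6 became 0.0542 or 0.0543. The summit of r7 held 62, 64 and 81 fragments in DMSO, 103, 89 and 91 with WX-02-23 and 69, 91 and 86 with WX-02-43. WX-02-23 and DMSO did not overlap at r7, whereas WX-02-43 reached into the WX-02-23 range before normalisation. Divided by each library's median over all shared regions, r7 stood at 2.711, 2.967 and 2.844 with WX-02-23. With WX-02-43 it stood at 2.379, 2.676 and 2.457, without overlap. TXNRD1-r7 rose against DMSO by a log2 difference of 0.49 (SE 0.09, limma adjusted p = 0.0133), a call lost without DMSO replicate 2 (adjusted p = 0.0512), and its difference from WX-02-43 was 0.21 with a 95% interval from -0.00 to 0.41 (adjusted p = 0.314).

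TXNRD1-r17 (chr12:104687791-104688283), about 7.3 kb inside the downstream start, showed the largest rise in local background. Background was 2.24, 2.2 and 2.55 fragments in DMSO, 8.4, 6.48 and 6.56 with WX-02-23 and 3.62, 4.64 and 4.34 with WX-02-43. The 3 groups did not overlap, with WX-02-43 between the others. The log2 difference of TXNRD1-r17 from DMSO, 1.29 (SE 0.04, limma adjusted p = 3.99e-05), was the largest of the 59362 shared regions tested. Its difference for WX-02-23 from WX-02-43 was 0.71 and for WX-02-43 from DMSO 0.58 (adjusted p = 0.00037 and 0.0161). The call for WX-02-43 at TXNRD1-r17 did not hold without any 1 of 5 libraries (DMSO replicate 1, 2 or 3, WX-02-43 replicate 1 or 3, adjusted p 0.0501 to 0.0804), nor with only the 2 groups in the fit (0.104) nor with a replicate block (0.126). The summit held 20, 34 and 24 fragments in DMSO, 49, 39 and 50 with WX-02-23 and 30, 32 and 29 with WX-02-43, and the WX-02-23 libraries lay above all others. That rise of 0.86 in log2 against DMSO passed (SE 0.17, adjusted p = 0.0185), but it was lost when either of DMSO replicates 1 and 3, or replicate 3 of WX-02-23, was left out (adjusted p = 0.0694, 0.0628 and 0.0683). Against WX-02-43 the rise of 0.59 at TXNRD1-r17 did not pass (adjusted p = 0.0977).

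TXNRD1-r18 (chr12:104697106-104697660), about 16.7 kb inside the downstream start, was the 1 member that fell by fold. Its fold was 12.05, 13.47 and 14.21 in DMSO, 7.55, 7.51 and 7.07 with WX-02-23 and 10.5, 8.88 and 9.13 with WX-02-43. The groups did not overlap, and WX-02-43 lay between the others. Its log2 difference in fold from DMSO was -0.85 with WX-02-23 (SE 0.10, limma adjusted p = 0.0041) and -0.41 with WX-02-43 (adjusted p = 0.408), and WX-02-23 differed from WX-02-43 by -0.45 (adjusted p = 0.0512). The summit of TXNRD1-r18 held 36, 45 and 52 fragments in DMSO, 41, 34 and 33 with WX-02-23 and 38, 38 and 41 with WX-02-43, and these overlapped (log2 difference of WX-02-23 from DMSO -0.27, adjusted p = 0.147). Its local background was 2.07, 2.42 and 2.73 in DMSO, 4.56, 3.66 and 3.81 with WX-02-23 and 2.72, 3.39 and 3.6 with WX-02-43, and rose with WX-02-23 by 0.57 in log2 (adjusted p = 0.00112). The lower fold at TXNRD1-r18 thus came with a higher background and a lower summit estimate that did not pass after adjustment.

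**Figure D2:**
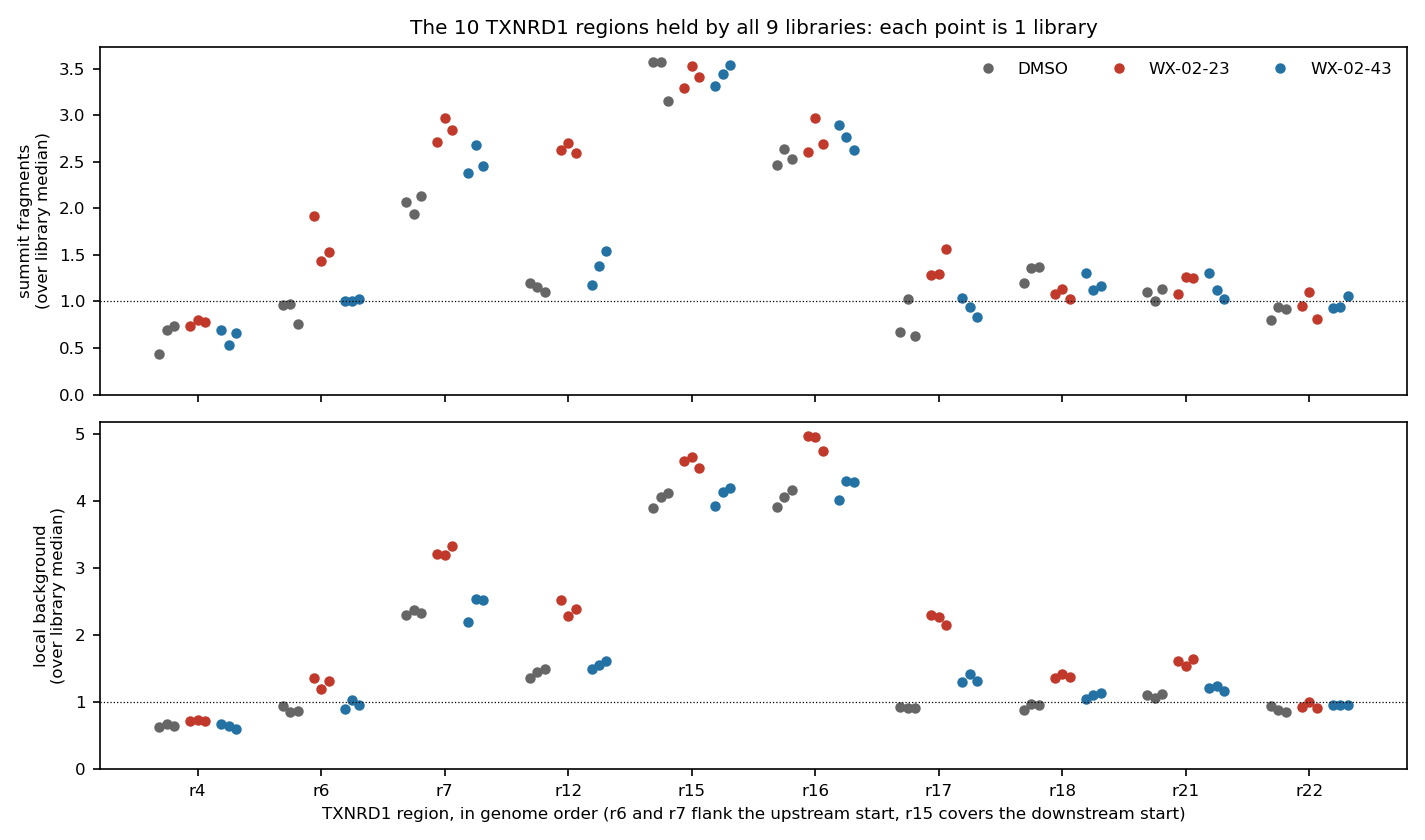
The 10 TXNRD1 regions held by all 9 libraries in genome order, with summit fragments (upper panel) and local background plus 1 fragment (lower panel) of each library, both divided by that library's median over all shared regions. Each point is 1 library; WX-02-23 stands above the other groups in background from r6 to r21 and in summit fragments at r6, r7, r12 and r17, and at r4 its background is also the highest, at 0.713 to 0.727 against 0.594 to 0.676 in the other libraries, while at r22 WX-02-23 overlaps with both other groups in both panels.

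Among the shared TXNRD1 regions, background was higher with WX-02-23 than with DMSO at each from r6 to TXNRD1-r21. The latter lay about 74.7 kb downstream of the downstream start. Regions between them that some libraries lacked entered no test, so a continuous rise is not shown. Where TXNRD1-r9 was called, its background overlapped before normalisation. It was 1.52 in DMSO replicate 3, 1.6 and 1.32 in WX-02-23 replicates 1 and 2, and 1.35 and 1.5 in WX-02-43 replicates 1 and 3. TXNRD1-r21 (chr12:104755139-104755597) had a background of 2.86, 2.78 and 3.4 fragments in DMSO, 5.56, 4.07 and 4.74 with WX-02-23 and 3.32, 3.92 and 3.75 with WX-02-43. WX-02-23 exceeded both other groups in every library there (log2 differences 0.54 from DMSO and 0.38 from WX-02-43, limma adjusted p = 0.000474 and 0.0017), while its summit fragments did not pass (0.16 and 0.08, adjusted p = 0.584 and 0.823). At TXNRD1-r15, which covers the downstream start (chr12:104680296-104681264), the summit held 107, 118 and 120 fragments in DMSO, 125, 106 and 109 with WX-02-23 and 96, 117 and 124 with WX-02-43. These ranges overlapped, with a log2 difference of 0.00 and a 95% interval from -0.19 to 0.19 against DMSO (adjusted p = 0.998), and TXNRD1-r15 differed in background by 0.22 (adjusted p = 0.00436). TXNRD1-r4 and TXNRD1-r22, at the ends of the window, did not pass against DMSO by background (log2 differences 0.13 and 0.08). Divided by each library's median over shared regions, the median background of the 10 TXNRD1 regions was 1.03, 1.01 and 1.04 in DMSO, 1.95, 1.90 and 1.90 with WX-02-23 and 1.26, 1.33 and 1.24 with WX-02-43. The 3 groups did not overlap by this measure, which carries no test because its members were chosen with results known.

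By local background, 15 of 41 shared members were higher with WX-02-23 than with DMSO and 1 was lower, where 5.9% of all shared regions were higher and 3.93% lower (limma, adjusted p under 0.05). TXNRD1 gave 8 of the 15 and HMOX1 4 (r4, r5, r6 and r8), and GCLC-r2, SLC7A11-r4 and OSGIN1-r4 gave 1 each, while NQO1-r7 was lower. All 8 TXNRD1 calls, HMOX1-r6, HMOX1-r8 and GCLC-r2 kept an adjusted p under 0.05 in all 9 alternatives run, which included leaving out each of the 6 libraries. The calls of HMOX1-r4, SLC7A11-r4, OSGIN1-r4 and NQO1-r7 were kept in 2, 2, 3 and 3 of 9, and that of HMOX1-r5 in 6. At an unadjusted p under 0.05, 23 were higher and 1 lower, beside 12.4% and 12% of all shared regions. Against WX-02-43, 10 of 41 were higher with WX-02-23 and 0 lower (limma, adjusted p under 0.05), where 5.26% and 3.84% of all shared regions were called. At an unadjusted p under 0.05, 19 were higher and 2 lower, beside 12.3% and 11.8%. TXNRD1 gave 8 of these 10, and HMOX1-r8 and GCLC-r2 the others. The calls of TXNRD1-r4 and TXNRD1-r16 were kept in 1 and 2 of 9 alternatives and the other 8 calls in all 9. Median-centred values gave 17 higher and 2 lower, beside 7.64% and 5.5% of all shared regions under the same setting. With WX-02-43 against DMSO, 1 of 41 was higher (TXNRD1-r17) and 0 lower, where 0.0202% and 0.0337% of all shared regions were called. At an unadjusted p under 0.05, 10 of 41 were higher and 1 lower with WX-02-43, beside 5.98% and 6.13% of all shared regions, and 7 of the 10 were TXNRD1 regions.

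**Figure D3:**
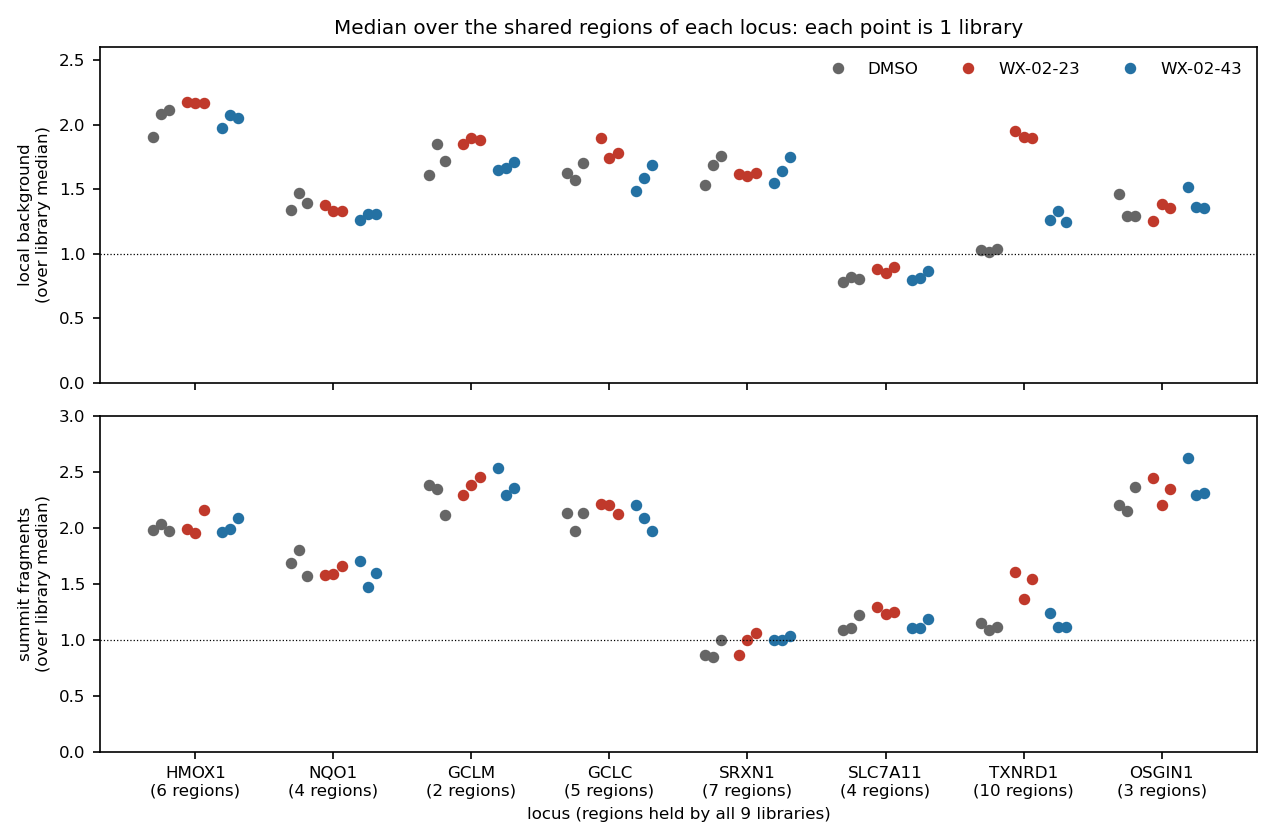
Local background plus 1 fragment (upper panel) and summit fragments (lower panel) at each of the 8 loci, as the median over the locus's shared regions divided by the library's median over all shared regions. Each point is 1 library; at TXNRD1 the WX-02-23 libraries stand at 1.90 to 1.95 in background against 1.01 to 1.04 in DMSO, and the groups lie closer together in background at every other locus.

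By summit fragments, 4 of 41 shared members were higher with WX-02-23 than with DMSO and 0 lower, where 3.16% of all shared regions were higher and 2.52% lower. All 4 were the TXNRD1 regions r6, r7, r12 and r17. An unadjusted limma p was under 0.05 for 5 higher and 1 lower, beside 8.87% and 8.47% of all shared regions. Against WX-02-43, 2 were higher (TXNRD1-r6 and TXNRD1-r12) and 0 lower, against 2.06% and 2.65% of all shared regions, with 7 and 1 at an unadjusted p under 0.05, beside 7.88% and 8.32%. With WX-02-43 against DMSO limma called 0 in either direction, against 0% and 0.00337% of all shared regions, with 2 higher and 0 lower at an unadjusted p under 0.05, beside 4.96% and 4.5%.

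By fold, the measure planned for peak strength, 0 of 41 shared members were stronger with WX-02-23 than with DMSO and 1 was weaker (TXNRD1-r18), where 0.699% of all shared regions were stronger and 0.795% weaker (limma, adjusted p under 0.05). At an unadjusted p under 0.05, 2 were stronger and 5 weaker, beside 5.75% and 6.54% of all shared regions. With WX-02-43 against DMSO limma called 0 in either direction, as it did over all shared regions (0%), and at an unadjusted p under 0.05 there were 2 stronger and 1 weaker, beside 3.5% and 4.11%. Between the stereoprobes it called 0 members, where 0.518% of all shared regions were stronger and 0.921% weaker with WX-02-23, and 4 stronger and 6 weaker members had an unadjusted p under 0.05, beside 6.31% and 6.64%. With −log10 p in place of fold, 2 members were stronger with WX-02-23 than with DMSO (TXNRD1-r6 and TXNRD1-r12) and 1 was weaker (TXNRD1-r18), beside 1.79% and 1.66% of all shared regions. By the same measure 1 member was stronger with WX-02-23 than with WX-02-43 (TXNRD1-r12) and 0 weaker, beside 1.1% and 1.78%. The median log2 difference in fold over the 41 members was -0.01 for WX-02-23 against DMSO, 0.01 for WX-02-43 against DMSO and -0.06 between the stereoprobes, beside 0.00, 0.01 and -0.00 over all shared regions.

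**Figure D4:**
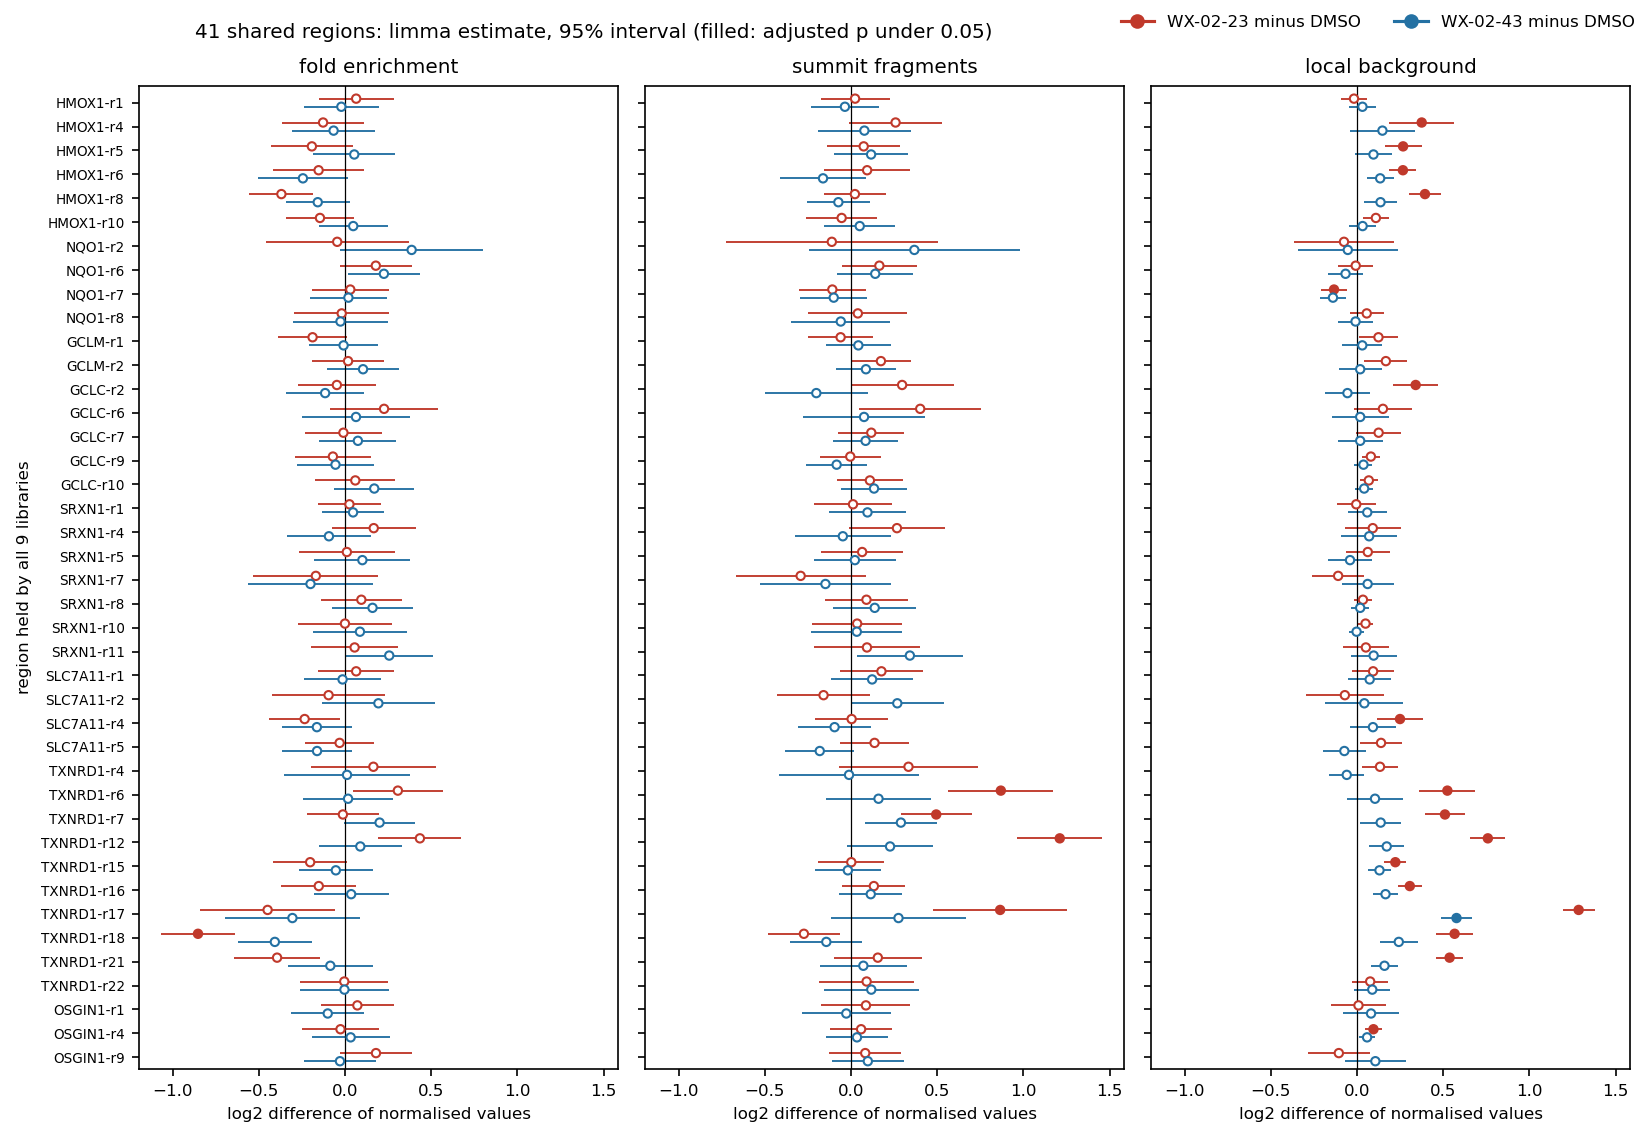
Log2 differences from DMSO for WX-02-23 (red) and WX-02-43 (blue) at the 41 shared members, by fold enrichment, summit fragments and local background; points are limma estimates, lines 95% intervals, and filled points have an adjusted p under 0.05. Both contrasts share the DMSO libraries. Filled red points are 1 by fold, 4 by summit fragments and 16 by local background (15 of them higher), and the 1 filled blue point is the background of TXNRD1-r17.

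At HMOX1, whose product releases iron, carbon monoxide and biliverdin from haem, the background rose around the start while summits did not change detectably. HMOX1-r8, over the start (chr22:35776754-35777445), had a fold of 9.77, 10.26 and 10.1 in DMSO, 7.6, 7.79 and 7.96 with WX-02-23 and 8.43, 8.57 and 8.39 with WX-02-43. The groups did not overlap, but the log2 difference of WX-02-23 from DMSO, -0.37, missed the threshold (SE 0.09, limma adjusted p = 0.0593). Summit fragments were 64, 77 and 85 in DMSO, 83, 67 and 73 with WX-02-23 and 60, 73 and 75 with WX-02-43, and these overlapped (log2 difference 0.02, 95% interval -0.16 to 0.20). The background of HMOX1-r8 was 5.66, 6.6 and 7.52 fragments in DMSO, 10.05, 7.72 and 8.3 with WX-02-23 and 6.24, 7.64 and 8.06 with WX-02-43. It was higher with WX-02-23 than with DMSO by 0.39 in log2 and than with WX-02-43 by 0.26 (adjusted p = 0.00217 and 0.0109). HMOX1-r4, HMOX1-r5 and HMOX1-r6, about 14.5, 9.1 and 4.0 kb upstream, differed in background from DMSO by 0.38, 0.27 and 0.27 with WX-02-23. With WX-02-43 these differences were 0.147, 0.095 and 0.134 (limma adjusted p = 0.527, 0.471 and 0.201). None of these regions passed by summit fragments or by fold.

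HMOX1-r3 (chr22:35760277-35760579), about 16.7 kb upstream of the HMOX1 start, was called only in the 3 WX-02-23 libraries, at 4.98, 4.42 and 5.46 fold with 26, 17 and 22 fragments. No DMSO or WX-02-43 library had a peak there. TXNRD1-r10 (chr12:104641385-104641650) had the same layout, with 5.03, 6.24 and 4.83 fold and 13, 13 and 11 fragments, and so had OSGIN1-r3 (chr16:83980684-83981027), about 5.9 kb upstream of the OSGIN1 start, with 4.55, 5.14 and 4.15 fold and 11, 11 and 9 fragments. GCLM-r3 (chr1:94401854-94402312), about 27.1 kb upstream of GCLM, was close to this layout, with folds of 8.81, 8.49 and 9.05 with WX-02-23, 6.72 in DMSO replicate 3 and 5.03 in WX-02-43 replicate 2. HMOX1-r3, TXNRD1-r10 and OSGIN1-r3, 3 of 81 members, were gained against DMSO, where 1.77% of all regions were, and against WX-02-43, where 1.43% were. A region counts as gained when each of the 3 libraries of the first group held a peak there and 0 of the 3 in the other did, and as lost in the reverse case. Their folds of 4.15 to 6.24 lay below the median of 9.05 of the shared members. Where no peak was listed, signal may still lie under the calling threshold.

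NQO1-r5 (chr16:69757778-69758009), about 2.6 kb inside NQO1, was lost with WX-02-23 against DMSO, the 1 of 81 members to be so, where 0.739% of all regions were. Its fold was 3.41, 3.67 and 3.52 in DMSO, and 3.58 and 3.03 in WX-02-43 replicates 1 and 3. TXNRD1-r14 (chr12:104679742-104679960), about 0.8 kb before the downstream TXNRD1 start, was lost with WX-02-23 against WX-02-43, where 0.806% of all regions were, with folds of 2.59, 2.84 and 2.54 in WX-02-43 and 2.73 in DMSO replicate 3. Neither was lost in peak lists cut to equal length. With WX-02-43 against DMSO, 0 of 81 members were gained and 0 lost, where 0.331% and 0.366% of all regions were, and no test was run on presence. Of the 40 members not held by all 9 libraries, more WX-02-23 than DMSO libraries held 23 and fewer held 11, and 42.6% and 29.9% of all such regions did so. WX-02-23 replicate 1, the longest list, was the only holder of 5 of these 40, and its part in the count was not tested.

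**Figure D5:**
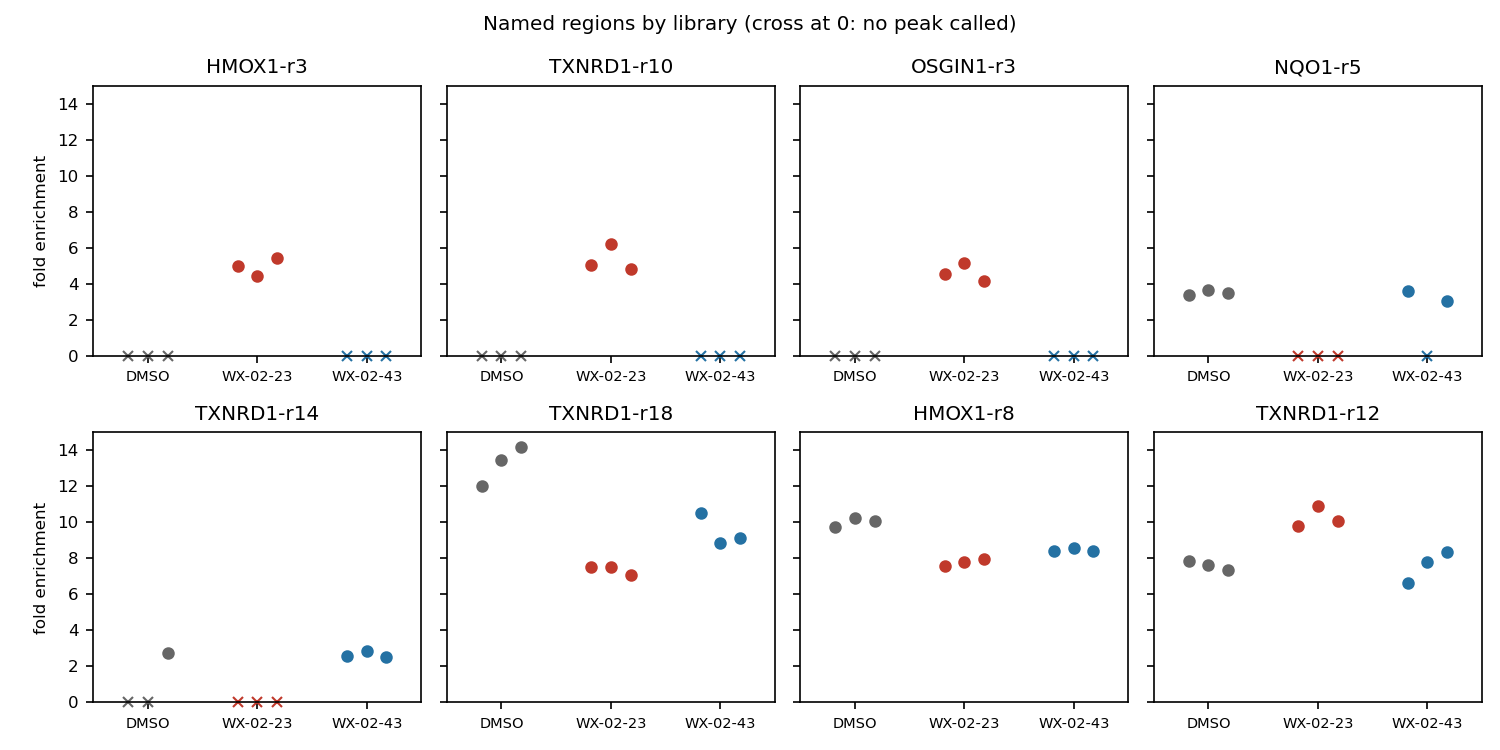
Fold enrichment by library at 8 named regions, with 3 libraries per group and a cross at 0 where no peak was called. HMOX1-r3, TXNRD1-r10 and OSGIN1-r3 have peaks in WX-02-23 alone, NQO1-r5 and TXNRD1-r14 have none in WX-02-23, TXNRD1-r18 and HMOX1-r8 are lowest with WX-02-23, and TXNRD1-r12 is highest.

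No region in the windows of the glutathione genes passed by summit fragments. The smallest adjusted p lay away from the starts, for WX-02-23 against WX-02-43. The log2 differences were 0.498 at GCLC-r2, 0.318 at SLC7A11-r5 and -0.428 at SLC7A11-r2. Their unadjusted limma p was 0.00404, 0.00516 and 0.00544, and the adjusted p 0.0687, 0.0807 and 0.0832. SLC7A11-r4, over the start of the cystine transporter (chr4:139162465-139163902), had 93, 102 and 109 fragments in DMSO, 109, 101 and 89 with WX-02-23 and 80, 102 and 97 with WX-02-43. These overlapped, with a log2 difference of 0.00 for WX-02-23 against DMSO (95% interval -0.21 to 0.21) and 0.10 against WX-02-43 (-0.11 to 0.31). GCLM-r2, over the GCLM start (chr1:94374204-94375485), had 82, 93 and 92 fragments in DMSO, 109, 89 and 96 with WX-02-23 and 84, 93 and 99 with WX-02-43, with overlap before normalisation. Divided by each library's median over all shared regions, WX-02-23 (2.868, 2.967 and 3.0) lay above DMSO (2.733, 2.818 and 2.421). WX-02-43 (2.897, 2.735 and 2.829) overlapped with both. The log2 difference of WX-02-23 from DMSO at GCLM-r2 was 0.17 (95% interval -0.00 to 0.35, limma adjusted p = 0.29). At the GCLC start, GCLC-r9 (chr6:53409313-53410080) had 70, 71 and 83, then 84, 66 and 68, then 64, 72 and 69 fragments in the same order of groups, with a log2 difference of -0.01 for WX-02-23 against DMSO (95% interval -0.18 to 0.17). By background, SLC7A11-r4 was 5.32, 5.64 and 6.63 in DMSO, 8.06, 6.4 and 6.33 with WX-02-23 and 5.18, 7.06 and 6.84 with WX-02-43, with overlap before normalisation and a log2 difference of 0.25 for WX-02-23 against DMSO (limma adjusted p = 0.037). The other region called by background in the windows of these genes was GCLC-r2 (chr6:53330341-53331230). It lay about 79.1 kb downstream of the GCLC start, at the edge of the window, and was not assigned to GCLC. Its background was 4.08, 4.04 and 4.72 in DMSO, 6.75, 4.74 and 5.25 with WX-02-23 and 3.64, 4.78 and 4.18 with WX-02-43, where WX-02-23 replicate 2 fell below WX-02-43 replicate 2 before normalisation. After it GCLC-r2 was higher with WX-02-23 than with DMSO by 0.34 and than with WX-02-43 by 0.40 (limma adjusted p = 0.0118 and 0.00767).

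NQO1, SRXN1 and OSGIN1 gave no call at a start by fold or summit fragments. NQO1-r6, over the start (chr16:69760015-69760987), had a fold of 9.57, 11.62 and 11.61 in DMSO, 11.87, 13.31 and 11.9 with WX-02-23 and 11.75, 12.96 and 11.87 with WX-02-43. Both stereoprobe groups lay above DMSO in every library, yet the log2 differences of 0.18 and 0.22 missed the threshold (limma adjusted p = 0.516 and 0.627). SRXN1-r5, over the SRXN1 start (chr20:633364-634357), had 79, 73 and 75 fragments in DMSO, 84, 74 and 73 with WX-02-23 and 74, 71 and 79 with WX-02-43, which overlapped (log2 difference of WX-02-23 from DMSO 0.06, 95% interval -0.17 to 0.30). OSGIN1-r4, over the OSGIN1 start (chr16:83986482-83987598), had 85, 96 and 93, then 104, 82 and 93, then 86, 92 and 95 fragments in the same order of groups, with a log2 difference of 0.06 from DMSO (95% interval -0.12 to 0.24). OSGIN1-r6 (chr16:84001669-84001948), about 15 kb downstream of the OSGIN1 start, entered no test because 7 libraries held it. Where it was called, its background was 2.62, 2.72 and 2.96 in DMSO, 5.44 and 4.51 in WX-02-23 replicates 1 and 3, and 3.82 and 4.22 in WX-02-43 replicates 2 and 3. The stereoprobe libraries that held it thus lay above DMSO before normalisation. No value exists for WX-02-23 replicate 2 or WX-02-43 replicate 1.

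Windows of 18 other genes of the pathway held 117 regions, 61 of them held by all 9 libraries. By local background 9 of 61 were higher with WX-02-23 than with DMSO and 4 lower, beside the 5.9% and 3.93% of all shared regions. UGDH, which makes UDP-glucuronic acid, gave 3 of the 9, GSR (glutathione reductase) and FTH1 (ferritin heavy chain) 2 each, and PRDX1 (a peroxiredoxin) and ABCC1 (an exporter of glutathione conjugates) 1 each. The 4 lower were 2 at ME1, an NADPH source, and 1 each at PRDX1 and TALDO1. The regulators NFE2L2, KEAP1, BACH1 and MAFG gave none in this pair. Between the stereoprobes 4 of 61 were higher in background with WX-02-23 and 1 lower, near the 5.26% and 3.84% of all shared regions. With WX-02-43 against DMSO limma called 0 in either direction, beside 0.0202% and 0.0337%. At an unadjusted p under 0.05, 9 of 61 were higher and 5 lower in that pair, beside 5.98% and 6.13%. By summit fragments limma called 0 of the 61 in each of the 3 pairs, beside the shares given above for all shared regions. At an unadjusted p under 0.05, 6 were higher and 2 lower with WX-02-23 than with DMSO, beside 8.87% and 8.47%. For WX-02-43 against DMSO these counts were 1 and 1, beside 4.96% and 4.5%. Between the stereoprobes they were 3 and 1, beside 7.88% and 8.32%. By fold 1 of 61 was called, a region at FTH1 that was weaker with WX-02-23 than with WX-02-43, beside 0.921% of all shared regions. By presence, 1 of 117 regions, at ABCC1, was gained with WX-02-23 against DMSO and 0 were lost, beside 1.77% and 0.739% of all regions. Against WX-02-43, 2 were gained (the same ABCC1 region and 1 at GSR) and 1 lost (at ME1), beside 1.43% and 0.806%. With WX-02-43 against DMSO, 0 of 117 were gained and 0 lost, beside 0.331% and 0.366%.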

How the data were processed

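An ATAC-seq kit was used for library preparation, per the labels. The submitters' processing notes name Bowtie2, MACS2 and hg19; each library has its own peak list. Versions, settings, duplicate removal and any control track: not given in the sources used here. The authors' deposited lists give per peak a fold enrichment (a ratio), a −log10 p and −log10 q, and a score that repeats the −log10 q and was not used. These are the authors' own values.

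Peaks on chromosomes 1 to 22 and X were merged at 1 bp overlap. Strength was the log2 fold of the strongest peak per library in the 59637 regions held by all 9, quantile-normalised, and tested with limma 3.58.1 (R 4.3.3) over 3 groups and all 3 pairs, with Benjamini-Hochberg adjustment over all regions and a threshold of 0.05. With fold as (pileup + 1)/(background + 1) and a Poisson tail, as MACS2 computes them, a whole pileup and a background matched the deposited p within 0.002 for 99.71% of 785549 peaks. Summit fragments (log2) and local background (log2 of value plus 1) were fitted the same way over the 59362 regions solved in every library. Depth is known only through these fragments. Presence carries no test. On simulated data for WX-02-23 against DMSO over 59637 regions, the fold fit recovered 20% of changes of 0.5 and 79.4% of changes of 1 in log2. Of its calls, 4.4% fell on regions with no planted change. The noise was drawn independently for each library, and summit fragments and background were not simulated.

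The members, lists and tests were chosen with earlier results of these data known. Named regions are the most enriched shared region of each locus, every gained, lost or called member, and the 5 smallest p per pair, 21 in all; regions named for summit fragments or background, and the start regions, were added after values were seen. A genome or annotation of hg19 was not used. Starts were placed from general knowledge to the nearest 100 bp, and the pathway windows likewise, so distances are approximate. Alternatives were stricter q, at least 50% of a region covered, equal-length lists, other normalisations and measures, pairwise fits, a replicate block, and the omission of single libraries. No lists shared more than 0.12% of intervals. Some of the luminal loci examined are not reported here.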

Additional observations from a re-analysis of the deposited data

How the results depend on the processing

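Leaving out libraries aside, 74 of 90 alternative counts equalled the reported one or stayed within 1.5 times of it, counts that stayed at 0 included. The exceptions follow, and the cause was not tested unless fewer peaks or samples entered. In equal-length lists, 0 members were lost with WX-02-23 against DMSO and 0 against WX-02-43, and 0 were lost against WX-02-43 at −log10 q of at least 5. With 50% of a region covered, 1 member was gained with WX-02-43 against DMSO. By −log10 p, 2 and 1 members were stronger with WX-02-23 than with DMSO and WX-02-43. By summit fragments, 4 and 2 were higher and 0 was weaker against DMSO. At −log10 q of at least 5 in all libraries, 1 was weaker with WX-02-23 than with WX-02-43. For local background, median-centred values gave 2 higher with WX-02-43 than with DMSO. Over all shared regions that setting called 236 higher and 532 lower in this pair, where the main fit called 12 and 20. Between the stereoprobes median-centred values gave 17 higher and 2 lower with WX-02-23. With only the 2 groups compared, 0 were lower with WX-02-23 than with DMSO and 0 higher with WX-02-43.

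Among the regions named by the planned rule, in the pairs that named them, 4 differences in fold changed sign with summit fragments as the measure: HMOX1-r8 to 0.022 (WX-02-23 against DMSO) and 0.096 (against WX-02-43), and TXNRD1-r21 to 0.155 and 0.084 in the same order. Members outside those pairs changed sign too, such as TXNRD1-r17 from -0.45 to 0.865 (WX-02-23 against DMSO).

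Replicate numbers share only a number: deviations of same-numbered libraries correlated at -0.11 to 0.12. With the replicate block, 1 member was weaker by fold, 4 and 2 were higher by summit fragments, and 12, 8 and 0 were higher by background (WX-02-23 against DMSO, against WX-02-43, and WX-02-43 against DMSO).

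Without each library in turn, WX-02-23 against DMSO had 3 to 5 gained, 1 to 2 lost, 0 to 0 stronger and 1 to 1 weaker by fold, 3 to 4 higher by summit fragments, and 11 to 13 higher and 0 to 1 lower by background. Against WX-02-43 it had 3 to 5 gained, 1 to 2 lost, 1 to 2 higher and 0 to 1 lower by summit fragments, and 8 to 10 higher by background. WX-02-43 against DMSO had 0 to 1 gained, 0 to 1 lost and 0 to 1 higher by background. The other such counts stayed at 0. Depth limits the weak regions, which had as few as 9 fragments.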
